A study of Mus musculus with 912 samples.

Results

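The genes described here write, remove or repair DNA methylation, or belong to the Gadd45 family. They are Tet1, Tet2, Tet3, Gadd45a, Gadd45b, Gadd45g, Dnmt1, Dnmt3a and Tdg, 9 of the 42772 genes of the count table used here. They were chosen by name, and all 9 were present in both deposited tables. Single nuclei from the hippocampus of 31 female C57BL6 wild-type mice, aged 7.75 to 9 weeks per the labels, were sorted by antibody staining and sequenced with Smart-seq2. Of 912 nuclei, 783 were used, with a median of 1251690 counts (range 142275 to 5885216). In the first cohort (13 mice), mice stayed in the home cage (HC) or were killed 1 h after 15 min in an unfamiliar environment. Nuclei were sorted as FOS+ or FOS- for the protein of the immediate early gene Fos, and the submitters predicted a cell type for each. These were dentate gyrus (DG) granule neurons, CA1, CA3 and subiculum (Sub) neurons, and VIP, Pvalb, Ivy and Th nuclei. In the later cohort (18 mice), nuclei were PROX1+CTIP2+ (the DG gate) and ARC+, so all of them had been sorted on the activity marker ARC. They were FOS- nuclei 4 h or 5 h after a single exposure, and FOS+ or FOS- nuclei after 2 exposures 4 h apart. The second exposure was to the same environment (A>A) or a different one (A>C), and mice were killed 1 h after it. No transgene or other allele was used.

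Tet enzymes oxidise 5-methylcytosine, and Tdg, a DNA glycosylase, cuts out the further oxidised bases so that base excision repair can restore cytosine. Dnmt3a places new methyl groups and Dnmt1 copies existing ones after replication. The Gadd45 proteins are small stress-response proteins without known enzyme activity that have been tied to DNA demethylation, and Gadd45b is known as an activity-induced gene of the DG.

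The sequences around the starts of Tet3, Gadd45b and Gadd45g are shown because these were the members whose levels differed most between FOS+ and FOS- DG nuclei. Each runs 5′ to 3′ from 250 bases before to 50 bases after the RefSeq start (GRCm38.p6), with CG dinucleotides in capitals. The windows are chr6:83441629-83441928 (minus strand) for Tet3, chr10:80929841-80930140 (plus strand) for Gadd45b and chr13:51846425-51846724 (plus strand) for Gadd45g.
Tet3: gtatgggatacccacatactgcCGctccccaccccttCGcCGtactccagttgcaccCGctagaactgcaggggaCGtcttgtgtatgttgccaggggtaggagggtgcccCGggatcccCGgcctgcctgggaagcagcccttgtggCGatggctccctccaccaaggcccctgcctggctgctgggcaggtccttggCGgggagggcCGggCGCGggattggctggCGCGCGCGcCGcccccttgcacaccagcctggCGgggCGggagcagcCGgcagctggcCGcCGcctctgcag
Gadd45b: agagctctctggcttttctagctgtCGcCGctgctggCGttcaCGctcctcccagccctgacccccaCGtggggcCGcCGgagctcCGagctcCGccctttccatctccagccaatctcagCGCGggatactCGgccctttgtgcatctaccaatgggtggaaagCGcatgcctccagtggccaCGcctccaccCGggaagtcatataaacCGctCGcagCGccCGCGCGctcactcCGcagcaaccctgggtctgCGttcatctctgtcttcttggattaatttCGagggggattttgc
Gadd45g: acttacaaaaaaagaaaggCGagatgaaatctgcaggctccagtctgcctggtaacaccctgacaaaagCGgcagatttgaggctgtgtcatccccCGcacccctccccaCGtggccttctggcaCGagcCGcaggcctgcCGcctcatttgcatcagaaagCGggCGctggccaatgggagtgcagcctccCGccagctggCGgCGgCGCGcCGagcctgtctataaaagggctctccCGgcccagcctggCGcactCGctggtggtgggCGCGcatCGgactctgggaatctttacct

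The Tet3 window held 22 CG dinucleotides, the Gadd45b window 24 and the Gadd45g window 21, against a median of 7 over 32817 RefSeq promoter windows of the same length. As many or more were present in 23.1%, 20% and 24.8% of all windows. On either strand, the TATA motif TATAAA occurred once in the Gadd45b and Gadd45g windows and in 13.6% of all windows. CCAAT occurred 1 time in Tet3, 2 times in Gadd45b and 1 time in Gadd45g (37.4% of windows held it), and the SP1 motif GGGCGG 2, 1 and 0 times (35.6%). The letters of the activity-linked motifs TGACGTCA (the cyclic AMP response element, in 1.79% of windows), TGANTCA (AP-1, 7.81%) and GCGTGGGCG (EGR, 0.612%) were not in these 3 windows. Nor were the serum response element (1.63%) and the MEF2 motif (3.19%). TGACG, the part shared with the cyclic AMP response element, was likewise not found in them (20.8%).

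In the GENCODE annotation of GRCm38, Tet3 spans chr6:83362373-83459084 on the minus strand, so its RefSeq window lies inside the annotated gene. A non-coding gene on the plus strand, B230319C09Rik (chr6:83441755-83448322), starts inside that window and lies wholly within Tet3. The 2 genes share 6568 bases, taken over whole gene spans with introns. Smart-seq2 does not mark strand, so the strand cannot tell reads of the 2 genes apart there. Gadd45b (chr10:80930073-80932204) and Gadd45g (chr13:51846678-51848468) overlapped no other annotated gene. The remaining members lie at chr10:62804570-62908996 (Tet1), chr3:133463679-133545139 (Tet2), chr6:67035096-67037457 (Gadd45a), chr9:20907209-20959888 (Dnmt1), chr12:3806007-3914443 (Dnmt3a) and chr10:82629828-82650799 (Tdg). Tdg has near-identical copies elsewhere in the genome, and its values are uncertain to the extent that reads were split among them. Tdg also shares 367 bases with Glt8d2 on the other strand, Dnmt3a 2952 bases with its antisense gene Dnmt3aos and Gadd45a 859 bases with E230016M11Rik. In the DG groups E230016M11Rik held more summed counts than Gadd45a, with 1321 against 204 in A>C FOS+, 1841 against 2 in A>A FOS+ and 496 against 53 in HC nuclei. Glt8d2 held 1.33% to 45% of the counts of Tdg, and Dnmt3aos 0.0243% to 1.77% of those of Dnmt3a. How reads were split between these pairs was not tested, and the values and calls of Gadd45a and Tdg are uncertain to that extent.

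Levels below are log2(TPM+1), averaged over the nuclei of a mouse and then over mice with at least 2 nuclei. TPM corrects for transcript length, so on this scale genes can be set beside each other. All 26 DG FOS+ nuclei at 1 h and all 27 FOS- nuclei at 1 h came from 1 mouse, and DG HC means rest on 2 mice with 18 and 5 nuclei. Of the granule neuron genes Prox1, C1ql2 and Dsp, at least 1 of the 3 was above 1 in 86.4% to 100% of nuclei of each DG group. Arc was at 9.75 in FOS+ and 0.99 in FOS- DG nuclei at 1 h, and Fos mRNA was at 3.84 and 0.33. FOS- HC and 1 h nuclei with an Arc level above 2.5 had been left out, which itself lowers Arc in these groups. Keeping them left Tet3 called against HC (log2 fold change 5.06, edgeR adjusted p = 0.0255).

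Tet3 was the member with the highest level in FOS+ DG nuclei. At 1 h after the unfamiliar environment it averaged 9.53 in FOS+ nuclei, against 2.23 in FOS- nuclei of the same mouse and 3.37 and 2.82 in the 2 HC mice. It was detected, with at least 1 count, in 26 of 26 FOS+ nuclei (95% exact binomial interval 86.8% to 100%) and in 76% of HC nuclei (54.9% to 90.6%). Every FOS+ nucleus was above 4, and the 10th percentile of FOS+ nuclei (8.04) lay above the 90th percentile of FOS- nuclei (7.40). In the edgeR quasi-likelihood test on counts summed per mouse, Tet3 rose in 1 h FOS+ nuclei relative to HC (log2 fold change 5.02, SE 0.98, Benjamini-Hochberg adjusted p = 0.0252). It was the only one of the 9 members called by edgeR in that comparison, where 0.27% of 24405 genes were called. The HC mice were sorted on another date than the 1 h mouse, and date cannot be told apart from exposure. The call rests on both HC mice. Without one of them the adjusted p from edgeR was 0.0801, and without the other it was 0.391. Against FOS- nuclei of the same mouse the log2 fold change of Tet3 was 5.38 (SE 1.33, edgeR adjusted p = 0.346, with 0.0451% of genes called). The lone sums of the 1 h groups were assumed to vary like the other DG groups. On mean log2(TPM+1), limma called it in both comparisons, with a difference of 7.30 from FOS- nuclei (SE 1.36, adjusted p = 0.00803) and of 6.43 from HC (SE 1.18, adjusted p = 0.00271). It called 0.759% and 4.39% of 12388 genes in them. The 1 h FOS+ and FOS- values are single means from the same mouse, so limma too took their spread from the other DG groups, and an edgeR fit blocked on the mouse called 0 genes between them.

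Gadd45b was near the bottom of the scale in resting DG nuclei and among the higher members in FOS+ nuclei. It averaged 8.39 in 1 h FOS+ nuclei, 0.55 in FOS- nuclei of that mouse, and 0.45 and 1.07 in the 2 HC mice. It had a count in 25 of 26 FOS+ nuclei (96.2%, interval 80.4% to 99.9%), 12 of 27 FOS- nuclei (44.4%) and 5 of 25 HC nuclei (20%, interval 6.83% to 40.7%). The FOS- nuclei that carried it did so at low level, since the highest of them reached 2.04 and none was detected once every nucleus was thinned to 100000 counts. The log2 fold change of the summed counts was 7.72 against HC (SE 1.68, edgeR adjusted p = 0.0612) and 10.37 against FOS- nuclei (SE 2.55, edgeR adjusted p = 0.342). Neither passed the threshold of 0.05, though both did by edgeR when nuclei were kept whatever their reads and genes. The differences of means were 7.63 and 7.85, and both passed by limma (adjusted p = 0.00255 and 0.0147), with the spread again taken from the other DG groups.

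Gadd45g was already detected in 44% of HC nuclei. Its level was 7.26 in 1 h FOS+ nuclei, 1.81 in FOS- nuclei of the same mouse, and 1.71 and 2.83 in the 2 HC mice. The spread among FOS+ nuclei was wide, from 0.92 at the 10th to 9.87 at the 90th percentile. Gadd45g passed neither test against HC (log2 fold change 3.24, SE 1.01, edgeR adjusted p = 0.391, and a difference of means of 4.99, limma adjusted p = 0.0716). Gadd45a, the remaining family member, was absent from the counts of all 26 FOS+ and all 27 FOS- nuclei at 1 h. The exact upper bounds of these shares were 13.2% and 12.8%, for counting error within this 1 mouse only. It did not exceed 0.44 in any DG group mean.

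**Figure D1:**
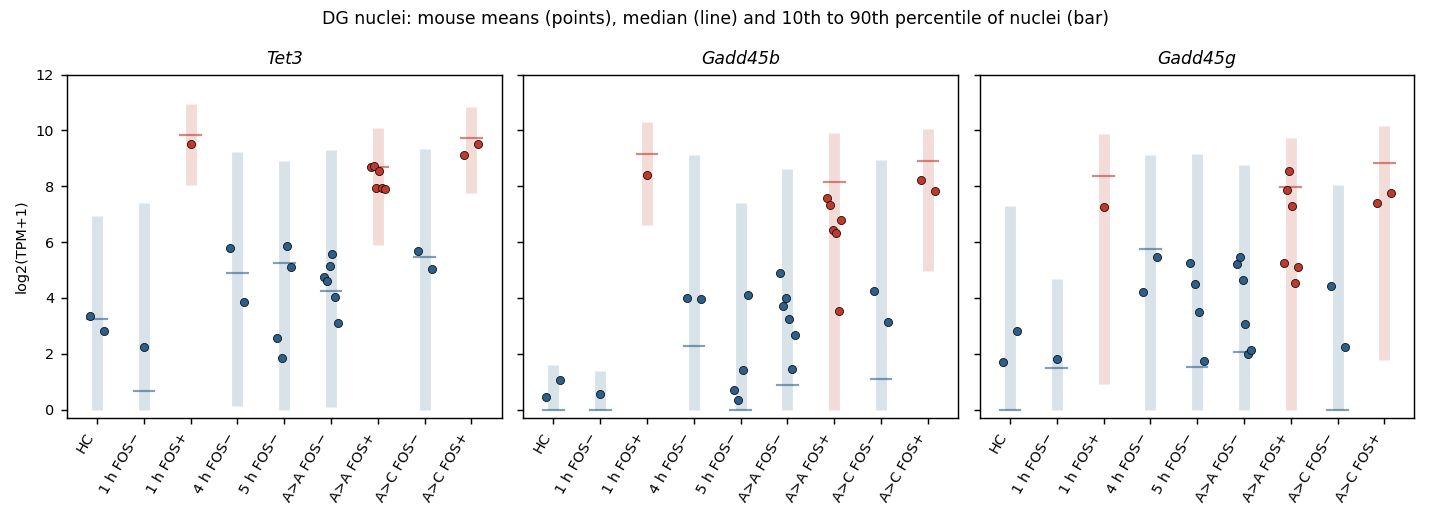
Level of Tet3, Gadd45b and Gadd45g in DG nuclei, as log2(TPM+1) on the y axis, by exposure and FOS group. Points are mouse means (1 to 6 mice), the short line is the median and the pale bar the 10th to 90th percentile of nuclei; FOS+ groups are red and FOS- groups blue. All FOS+ Tet3 means lie between 7.89 and 9.53 and all FOS- means between 1.84 and 5.85, whereas for Gadd45b and Gadd45g the FOS+ and FOS- means of A>A mice overlap.

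Tet2 averaged 3.23 in 1 h FOS+ and 1.44 in FOS- nuclei, against 0.02 and 1.65 in the HC mice. The log2 fold change against HC was 3.36 (SE 1.53, edgeR adjusted p = 0.82). Dnmt3a stayed between 5.05 and 5.92 in all 9 DG groups and had a count in 96.6% to 100% of nuclei. Neighbouring groups in its order of levels overlapped throughout. Its edgeR log2 fold change between A>A FOS+ and FOS- nuclei was -0.18 (SE 0.30, adjusted p = 0.911). Tet1 was at 0.77 and 1.72 in the HC mice and averaged 0.63 or less in every exposed DG group, with a mean of 0.00 in 1 h FOS+ nuclei, where 1 of 26 nuclei held a count. Dnmt1 averaged at most 0.48 and Tdg between 1.05 and 2.16 in DG groups. None of these was called by edgeR in any DG comparison. DESeq2, which called 5.87% and 10.1% of genes in the 2 comparisons, put Tet1 lower in 1 h FOS+ nuclei than in FOS- nuclei (adjusted p = 0.0361) and HC nuclei (adjusted p = 0.00102). In the same 2 comparisons it put Tet3 higher (adjusted p = 0.00022 and 5.44e-05 by DESeq2) and Gadd45b higher (adjusted p = 5.74e-07 and 2.04e-05 by DESeq2). It also put Gadd45g higher than in FOS- nuclei (DESeq2 adjusted p = 0.00861) and Gadd45a, without a count in the FOS+ nuclei, lower than in HC nuclei (DESeq2 adjusted p = 0.0488). These compare 1 summed library of 1 mouse with 1 from the same mouse or with 2 from HC mice, and DESeq2 took their spread from the other DG groups as well.

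At 4 h after the exposure, FOS- ARC+ nuclei held Tet3, Gadd45b and Gadd45g between the HC and the 1 h FOS+ levels. Tet3 was at 5.79 and 3.86 in the 2 mice, Gadd45b at 4.01 and 3.96, and Gadd45g at 4.20 and 5.46. These mouse means lay above both HC mice for all 3 genes, which was so for 18.2% of 12388 genes. By edgeR 0 of 9 members were called (0.246% of genes called), with log2 fold changes of 5.68 for Gadd45b (SE 1.48, adjusted p = 0.206) and 2.64 for Tet3 (SE 0.83, adjusted p = 0.433). DESeq2 called Gadd45b (adjusted p = 0.000394, with 5.43% of genes called). At 5 h the mice differed widely. Tet3 was at 5.85, 5.11, 2.58 and 1.84, Gadd45b at 1.41, 4.09, 0.71 and 0.35, and Gadd45g at 3.48, 1.74, 5.26 and 4.51, in the same order of mice. The 2 mice with more Tet3 were thus the 2 with less Gadd45g. The 5 h means rest on 59 of 96 sequenced nuclei, sorted on 2 dates, and the part of either in this was not tested. The 5 h mice overlapped the HC mice for all 3 genes and also overlapped the 4 h mice. By edgeR 0 of 9 members differed between 5 h and HC (0.262% of genes called) or between 5 h and 4 h (0% called). DESeq2 called 5 members between 5 h and HC, Gadd45b and Dnmt3a higher and Tet1, Gadd45a and Dnmt1 lower, where it called 11.1% of genes. The 5 h nuclei held no count of Gadd45a, 3 counts of Dnmt1 and 28 of Tet1, so these 3 calls are against a group at or near 0. The edgeR log2 fold change of Dnmt1 there ran from -8.01 to 4.26 as each mouse was left out, and it was above 0 without 1 of the HC mice. Tdg was lower in all 4 mice at 5 h than in both HC mice, as were 18.2% of genes, and Dnmt3a was higher at 5 h than at 4 h without overlap (2.99% of genes). Between 5 h and 4 h DESeq2 called Dnmt1 lower (2.83% of genes called). Against 1 h FOS+ nuclei, the 4 h nuclei gave 0 members by edgeR (0.0164% of genes called), with log2 fold changes of -2.39 for Tet3 (SE 0.92) and -2.04 for Gadd45b (SE 1.42) and an adjusted p of 1 for each. There DESeq2 called Tet1 higher (6.83% of genes called). The later nuclei differ from the HC and 1 h nuclei in cohort, sort date, deposited table and sorting as ARC+, and these cannot be told apart from time. Depth also differed, with a median of 426841 counts per nucleus at 5 h, 2469299 at 4 h and 979780 in HC nuclei, and its part in these values was not tested.

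The A>A re-exposure gave 6 mouse means in each FOS group, more than any other comparison. In the labels 2 of the A>A mice carried nuclei of 2 sort dates and of several ages, and each was treated as 1 animal. Tet3 was at 8.68, 8.74, 7.95, 8.54, 7.94 and 7.89 in FOS+ nuclei, a mean of 8.29 ± 0.40 (SD, n = 6). In FOS- nuclei it was at 4.74, 4.62, 5.14, 5.59, 4.05 and 3.11, a mean of 4.54 ± 0.87 (SD, n = 6). The groups did not overlap, as for 1.52% of 12388 genes, and the lowest FOS+ mouse lay above the highest FOS- mouse by more than 2 on the log2 scale. The difference of means was 3.75 (SE 0.56, limma adjusted p = 0.000263, with 2.76% of genes called). On summed counts the log2 fold change was 1.54 (SE 0.46) and did not pass by edgeR (adjusted p = 0.25, 0 of 9 members and 0.041% of genes called), though it did by DESeq2 (adjusted p = 0.025, with 4.57% of genes called). Individual FOS- nuclei reached FOS+ levels, with a 90th percentile of 9.29 over a median of 4.26, and such nuclei weigh more in a sum of counts than in a mean of logs. With only the A>A mice that had FOS+ and FOS- nuclei of 1 date, the edgeR log2 fold change was 1.85 (adjusted p = 0.476). Without the second A>A cohort it was 1.16 (edgeR adjusted p = 0.471). In the 4 mice that gave both kinds of nuclei, Tet3 was higher in FOS+ nuclei in 4 of 4, by 2.81 to 4.77. An exact two-sided sign-flip permutation test over 4 mice gave p = 0.125, the smallest value it can give.

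Gadd45b averaged 6.33 ± 1.47 (SD, n = 6) in A>A FOS+ nuclei, with mice at 7.59, 7.34, 6.43, 6.33, 3.52 and 6.79. In FOS- nuclei it averaged 3.32 ± 1.19 (SD, n = 6), with mice from 1.45 to 4.91. The groups overlapped through 1 FOS+ mouse, at 3.52. The difference of 3.01 (SE 0.65) passed by limma (adjusted p = 0.00958) and the edgeR log2 fold change of 1.35 (SE 0.71) did not pass (adjusted p = 0.379). Without a filter on low values, limma called Tet3 but no longer Gadd45b. Gadd45g averaged 6.44 ± 1.67 (SD, n = 6) in the FOS+ mice and 3.75 ± 1.56 (SD, n = 6) in the FOS- mice, a difference of 2.69 (SE 0.75, limma adjusted p = 0.0504) and an edgeR log2 fold change of 1.38 (SE 0.50, adjusted p = 0.261). Within the 4 mice with both kinds of nuclei, Gadd45b was higher in FOS+ nuclei in 4 of 4 (2.07 to 4.13), and Gadd45g in 4 of 4 (2.55 to 4.23). Tet2 was higher in 2 of these 4 and lower in the other 2.

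After the A>C re-exposure, the FOS+ mice were at 9.11 and 9.52 for Tet3, 8.21 and 7.82 for Gadd45b, and 7.41 and 7.77 for Gadd45g. The FOS- mice were at 5.67 and 5.04, 4.24 and 3.12, and 4.42 and 2.24. Tet2 was at 4.18 and 4.21 in FOS+ and 2.98 and 3.17 in FOS- nuclei, so 4 of the 6 members past the filter on low values were higher in both FOS+ mice, as were 15.2% of genes. Gadd45a, which did not pass the filter, was at 0.55 and 0.33 in FOS+ and 0.00 in both FOS- mice. By edgeR 0 members and 0% of genes were called. The limma adjusted p was 0.0529 for Tet3, a difference of 3.96 (SE 0.96), and 0.0793 for Gadd45b, a difference of 4.34 (SE 1.13). DESeq2 called Gadd45a higher and Dnmt1 lower in FOS+ nuclei (5.9% of genes called), both against a group without any count of the gene. FOS+ and FOS- nuclei of A>C came from different mice on different dates, and these cannot be told apart from FOS.

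Between the re-exposures, the 2 A>C FOS+ mice lay above all 6 A>A FOS+ mice for Tet3 and Gadd45b, a pattern of 3.24% of genes. The edgeR log2 fold changes of A>A against A>C were -0.62 for Tet3 (SE 0.62) and -0.57 for Gadd45b (SE 0.95), each with an adjusted p of 1, and 0% of genes were called. Dnmt3a was higher in all 6 A>A than in both A>C FOS+ mice (4.76% of genes). DESeq2 called Dnmt1 higher in A>A (5.81% of genes called), where the A>C FOS+ nuclei held no count of it. FOS+ nuclei of A>C differed from 1 h FOS+ nuclei of the first cohort by -0.09 for Tet3 (SE 0.95) and -0.34 for Gadd45b (SE 1.46) on the edgeR log2 scale, both with an adjusted p of 1 (0.0041% of genes called), and DESeq2 called Gadd45a higher and Dnmt1 lower (5.38%). In FOS- nuclei, A>A against 5 h gave 0 members by edgeR (0% of genes), with a log2 fold change of 1.61 for Gadd45b (SE 0.83, adjusted p = 0.49), and DESeq2 called Gadd45a and Dnmt1 higher (5.78%). Gadd45a had no count in 5 h or 1 h FOS+ nuclei. Dnmt1 had 3 counts in 5 h nuclei and no count in A>C FOS+ nuclei. These DESeq2 calls are thus against groups at or near 0. The standard errors of the edgeR fold changes leave room for differences in either direction.

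**Figure D2:**
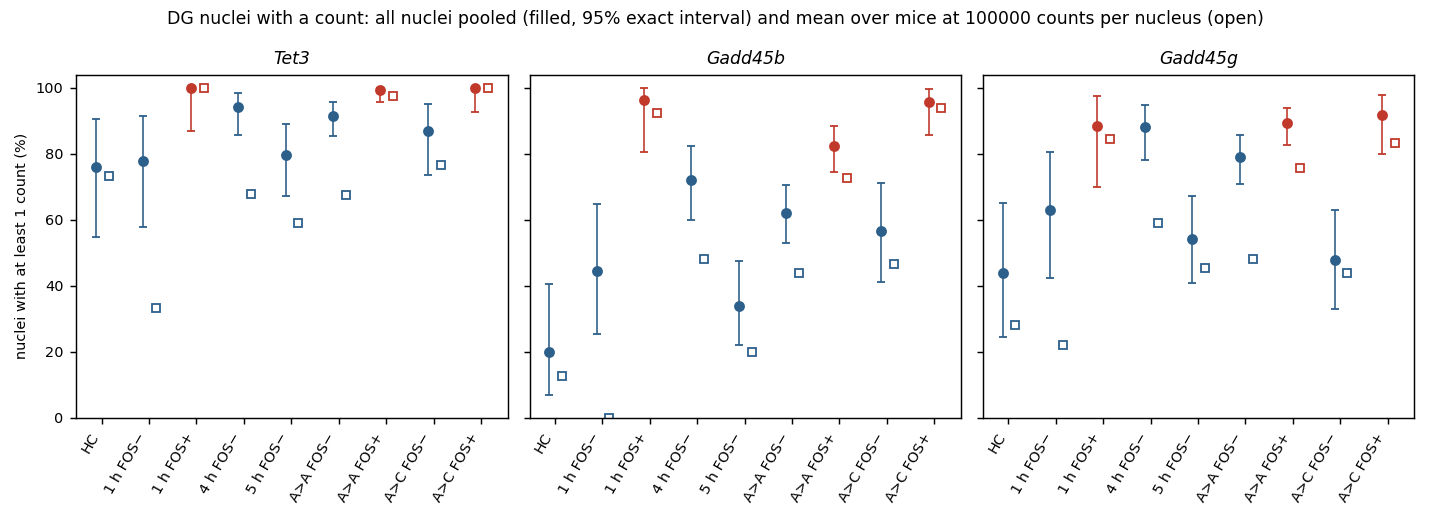
Share of DG nuclei with at least 1 count of Tet3, Gadd45b or Gadd45g (y axis, percent) by exposure and FOS group. Filled circles are all nuclei pooled with the 95% exact binomial interval (counting error only), and open squares are the mean over mice after thinning each nucleus to 100000 counts. For Gadd45b the pooled share runs from 20% in HC nuclei to 96.2% in 1 h FOS+ and 95.8% in A>C FOS+ nuclei, and thinning takes the mean over mice from 44.4% to 0% in 1 h FOS- nuclei and from 81.2% to 72.8% in A>A FOS+ nuclei.

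All of Tet3, Gadd45b and Gadd45g had a count in 23 of 26 FOS+ nuclei at 1 h (88.5%), 43 of 48 A>C FOS+ nuclei (89.6%) and 97 of 130 A>A FOS+ nuclei (74.6%). In FOS- DG nuclei the share was 1 of 25 in HC (4%), 7 of 27 at 1 h (25.9%), 40 of 68 at 4 h (58.8%), 9 of 59 at 5 h (15.3%), 61 of 129 in A>A (47.3%) and 9 of 46 in A>C (19.6%). A single count is a weak criterion in deep libraries. With all 3 genes above 5 on the log2(TPM+1) scale, the share was 73.1% of FOS+ nuclei at 1 h, 75% in A>C and 55.4% in A>A, but 0 of 27 FOS- nuclei at 1 h, 0 of 25 HC nuclei and at most 14.7% of any later FOS- group. Nuclei of a group share mice, so these shares describe the libraries and carry no test.

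Across the 26 DG mean values per mouse and group, the gene most like Tet3 was its overlapping antisense partner B230319C09Rik (Pearson r = 0.96), followed by Ankrd33b (0.95), Gpr3 (0.93), 1700016P03Rik (0.93) and Pde4a (0.92), among 14170 genes. B230319C09Rik was at 0.00 in both HC mice and in 1 h FOS- nuclei, at 4.54 in 1 h FOS+ nuclei, and between 2.62 and 3.84 in A>A FOS+ mice. Its summed counts were 0% to 3.01% of those of Tet3 in the DG groups. The reads carry no strand, and the part of Tet3 reads in the counts and correlations of B230319C09Rik was not tested. The gene most like Gadd45b was Gpr3 (0.93), an orphan G protein-coupled receptor, then B230319C09Rik (0.92), Tet3 (0.91), Frmd6 (0.90) and Ankrd33b (0.89). Gadd45g went with Sgk1 (0.88), a kinase, the immediate early gene Nr4a1 (0.85), 1700016P03Rik (0.84), Smad7 (0.84) and Fos (0.82). The correlations are over means that share mice and FOS groups, and are a description of these samples.

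In CA1 neurons Tet3 was at 3.41, 5.58 and 5.82 in FOS+ nuclei of the 3 exposed mice, at 2.68, 3.40 and 3.65 in their FOS- nuclei, and at 2.49, 2.93 and 3.89 in HC mice. Within mice it was higher in FOS+ nuclei in 2 of 3. Gadd45g was higher in 3 of 3 mice, by 1.59 to 3.73, from a FOS- mean of 0.51 to a FOS+ mean of 3.11, and Tet2 in 3 of 3, by 1.46 to 2.13. Tet2, Gadd45g and Dnmt1 did not overlap between FOS+ and FOS- mice, as was so upward for 5.3% of 13718 genes, and Tdg lay lower (5.23% of genes). Gadd45b had a count in 14 of 33 FOS+ nuclei (42.4%), 2 of 21 FOS- nuclei (9.52%) and 1 of 19 HC nuclei (5.26%). Within mice its level was higher in FOS+ nuclei in 2 of 3, with differences from -1.84 to 2.61. By edgeR 0 members were called in any CA1 comparison (0% of 14507 genes, 629 of them with an unadjusted p under 0.05 between FOS+ and FOS-), and by limma likewise. DESeq2 called Gadd45b (adjusted p = 0.0061) and Gadd45g (adjusted p = 0.0145) higher in FOS+ than HC nuclei, where it called 1.82% of genes, and Gadd45b (adjusted p = 0.0267) higher in FOS- than HC nuclei, where it called 1.81%. The CA1 HC nuclei held 1 count of Gadd45b and 5 of Gadd45g, so these DESeq2 calls are against a group near 0. Against HC mice, FOS+ mice were higher without overlap for Gadd45b and Gadd45g (5.39% of genes) and lower for Gadd45a and Tdg (4.27%). FOS- mice were lower than HC mice for Gadd45a and Dnmt1 (3.82%).

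Subiculum FOS+ nuclei held Tet3 at 4.63, 5.08 and 7.29, against 2.96, 3.26 and 3.65 in FOS- nuclei. Gadd45b was at 1.15, 3.25 and 3.51 in FOS+ nuclei and without a count in 12 FOS- nuclei (exact upper bound 26.5%), with the HC mice at 0.00 and 3.42, and Gadd45g was at 2.04, 3.26 and 4.01 against a FOS- mean of 0.29. All 3 were higher in FOS+ than FOS- nuclei within each of the 3 mice, and their groups did not overlap (4.95% of 14111 genes higher likewise). In CA3, Tet3 was at 3.49 and 4.37 in FOS+ and 1.92 and 2.97 in FOS- nuclei, and Gadd45g at 3.02 and 4.86 against 0.27 and 0.67, where 16.3% of 12655 genes were higher without overlap. Gadd45b overlapped in CA3, at 2.5 and 1.55 in FOS+ and 0.19 and 1.68 in FOS- nuclei, and was higher in 1 of the 2 mice. Tet1 and Tdg were lower in both CA3 FOS+ mice (16.4% of genes). Against HC, the subiculum FOS+ mice were higher for Tet3 and Gadd45g (10.1% of genes) and lower for Tet1 and Dnmt1 (7.31%). In both regions edgeR and limma called 0 members and 0% of genes. DESeq2 called Gadd45g higher in FOS+ than FOS- nuclei in both (adjusted p = 1.21e-05 in subiculum and 0.00025 in CA3), where it called 3.46% and 3.6% of genes. It also called Gadd45b in subiculum, where FOS- nuclei held no count, and Gadd45g against subiculum HC nuclei (adjusted p = 0.000444, 2.65% of genes called). Gadd45g had 1 count in subiculum FOS-, 1 in subiculum HC and 5 in CA3 FOS- nuclei, so its calls too are against groups near 0.

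In VIP interneurons Gadd45g averaged 0.42 in FOS+ and 0.70 in FOS- nuclei, and was higher in FOS+ nuclei in 0 of 2 mice with both. Gadd45b had a count in 6 of 27 FOS+ nuclei (22.2%), 0 of 17 FOS- nuclei (exact upper bound 19.5%) and 1 of 22 HC nuclei (4.55%). Tet3 was at 2.13 and 3.43 in FOS+ and at 0.07, 1.31 and 5.38 in FOS- nuclei, and the groups overlapped. Within the 2 mice with both kinds of nuclei, Tet3 was higher in FOS+ nuclei in 2 of 2 (by 0.81 and 3.36), and Gadd45b in 2 of 2 (by 0.99 and 2.54). No VIP FOS+ nucleus of 27 held counts of all 3 genes. Dnmt3a was at 4.49 and 5.67 in FOS+ nuclei, below all 3 FOS- mice (7.01% of genes). By edgeR 0 members and 0% of 14736 genes were called. The difference of the FOS effect between cell types was also fitted, but its DG side is 1 mouse, so the spread of that effect between DG mice did not enter it. The difference was 4.10 for Tet3 (SE 2.68) and 9.23 for Gadd45b (SE 4.82) between DG and CA1 on the edgeR log2 scale, and 4.39 for Tet3 (SE 2.78) between DG and VIP, with adjusted p values of 1 (0.00458% of 21851 genes called in each). By limma the DG minus CA1 difference was 6.89 for Gadd45b (SE 1.34, adjusted p = 0.208).

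**Figure D3:**
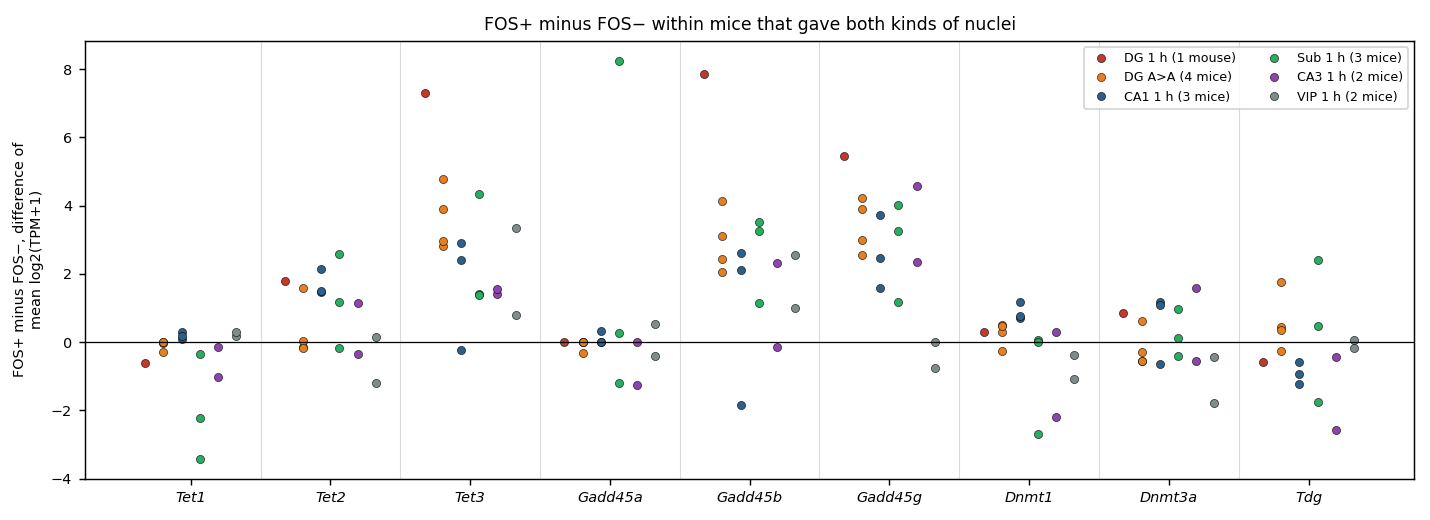
FOS+ minus FOS- difference of mean log2(TPM+1) (y axis) within each mouse that gave both kinds of nuclei, for the 9 genes (x axis), coloured by cell type and exposure. Each point is 1 mouse and the line marks no difference; Tet3 is above the line in all mice but 1 CA1 mouse, and Gadd45b at 7.85 and Tet3 at 7.30 in the single 1 h DG mouse are the highest of their genes.

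Dnmt3a was high in every cell type, with group means of 5.05 to 6.38 over DG, CA1, VIP, subiculum and exposed CA3 nuclei, 6.97 in 1 CA3 HC mouse, and counts in 96.3% to 100% of nuclei. Tet1 in resting subiculum was at 2.41 and 3.12 in the HC mice, and lay at 0.00, 0.04 and 0.50 in subiculum FOS+ nuclei. Gadd45a reached 8.25 in the FOS+ nuclei of 1 subiculum mouse and 0.00 and 1.63 in the other 2. Among HC nuclei, no member was called by edgeR between DG and CA1 (0.0197% of 15223 genes called), DG and VIP (0.0328%), VIP and CA1 (0%) or subiculum and CA1 (0%). DESeq2 called Gadd45g higher in DG than CA1 (adjusted p = 0.0408, 3.05% of genes called) and in VIP than CA1 nuclei (adjusted p = 0.0419, 4.47%). The CA1 HC nuclei held 5 counts of Gadd45g, so both calls are against a group near 0. Gadd45g had a count in 4 of 19 CA1 (21.1%) but only 3 of 22 VIP HC nuclei (13.6%). Mouse means did not overlap for Gadd45b and Gadd45g, higher in DG than CA1 (7.34% of genes), and Tet2 and Dnmt1, lower (17.9%). The same held for Tet3 and Tdg, higher in DG than VIP nuclei (12.5%). Gadd45a, Dnmt1 and Tdg were lower in VIP than CA1 nuclei (8.84%), and these 3 and Tet3 lower in subiculum than CA1 (9.27%). The resting DG mice were sorted through another gate and on another date than the CA1 and VIP mice, and these cannot be told apart from cell type. VIP and CA1 nuclei shared 1 mouse, date and gate, and both subiculum mice also gave CA1 nuclei through the same gate.

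**Figure D4:**
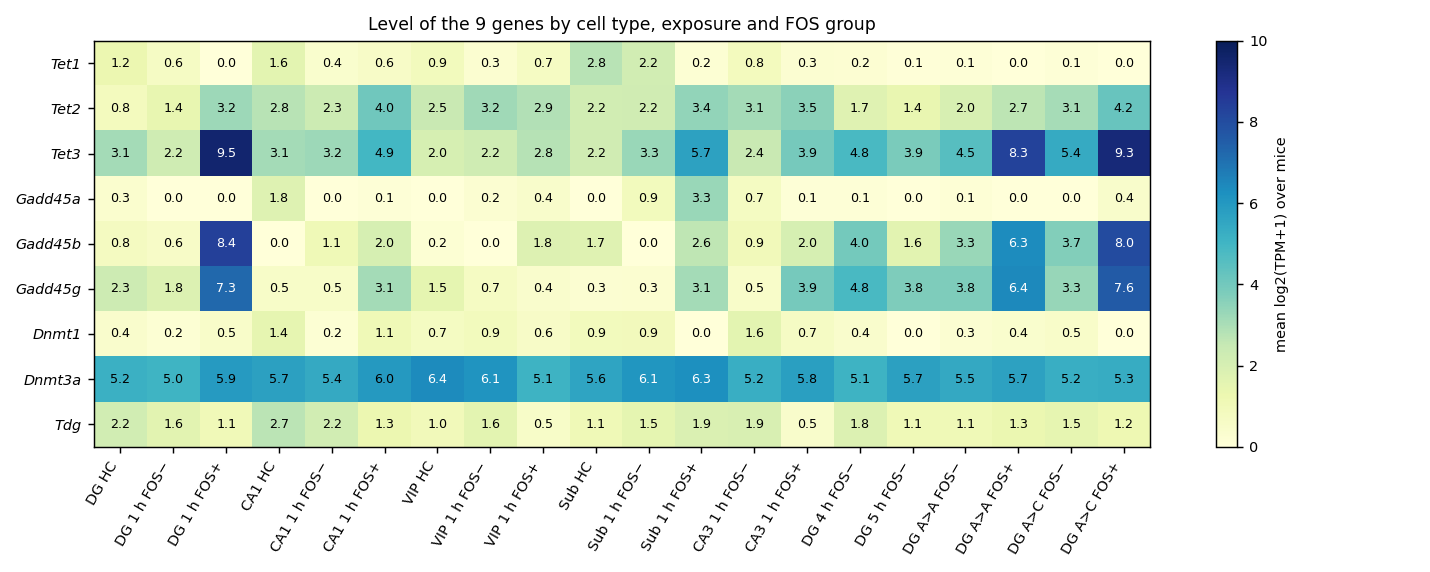
Mean log2(TPM+1) over mice (colour and number) of the 9 genes (rows) in 20 groups of cell type, exposure and FOS (columns). Tet3, Gadd45b and Gadd45g are darkest in the FOS+ DG columns (up to 9.5), Dnmt3a is between 5 and 7 throughout, and Tet1, Gadd45a and Dnmt1 are mostly below 1.

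The wider machinery was followed through 36 further genes: methyltransferases and maintenance factors, readers of methylated CpG, Tet partners, base excision repair genes, cytidine deaminases and Gadd45 partners. In 1 h FOS+ against HC DG nuclei edgeR called 0 of 33 tested. The median log2 fold change was -1.26 over 8 readers, -0.24 over 11 repair genes and 1.75 over 5 Gadd45 partners, beside 0.00 over all genes. Among the readers, Mbd2 was at 4.00 in FOS+ nuclei, 0.91 in FOS- nuclei of that mouse, and 0.00 and 0.24 in the HC mice (log2 fold change 7.14, SE 1.74, edgeR adjusted p = 0.122, limma adjusted p = 0.00716). After re-exposure Mbd2 averaged 1.67 in A>A and 1.22 in A>C FOS+ nuclei, and 2.00 and 1.28 in the FOS- nuclei.

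The other genes named were those with the largest fold changes of their lists, and none passed the edgeR test. Mbd3, another reader, had 1 count in FOS+ and 1395 in HC nuclei, the repair scaffold Xrcc1 1 and 513, and the Gadd45 partner Gadd45gip1 13 and 970. Their edgeR adjusted p values were 0.844, 0.844 and 0.69. DESeq2 called Mbd2 higher (adjusted p = 5.49e-05) and Mbd3 (adjusted p = 0.00561) and Gadd45gip1 (adjusted p = 0.00222) lower. Of the 30 list genes DESeq2 tested, it called 1 higher and 2 lower, beside 10.1% of all genes called. By limma 1 of 25 was higher, beside 4.39% of all genes called. Lig3, Pcna, Uhrf2 and Hells had log2 fold changes of 5.08, 3.28, 1.61 and 1.11, with edgeR adjusted p values of 0.844 to 1. The Tet partners Cxxc4 and Cxxc5 and the deaminase Apobec1 averaged 1.06 or less in both groups.

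Ogt, an O-GlcNAc transferase that binds Tet proteins, was the one gene of these lists called by edgeR in any DG comparison. It fell in A>A FOS+ relative to FOS- nuclei, by 1.10 on the edgeR log2 scale (SE 0.18, adjusted p = 0.0227). Its level was 7.39 to 9.44 (median 8.74, 6 mice) in FOS+ and 9.79 to 10.28 (median 10.00, 6 mice) in FOS- nuclei. The groups did not overlap, as was so downward for 1.09% of genes. Ogt was thus abundant in both, with a count in 99.2% of FOS+ and 100% of FOS- nuclei. The A>C groups were at 8.17 and 8.30 in FOS+ and 10.16 and 10.17 in FOS- nuclei. The call was lost when any 1 of 8 mice was left out (edgeR adjusted p from 0.056 to 0.138). It was also lost with the mouse as a replicate block (log2 fold change -0.90, edgeR adjusted p = 0.425) and without the second A>A cohort (edgeR adjusted p = 0.281). The same held for A>A mice with FOS+ and FOS- nuclei of 1 date (log2 fold change -0.92, edgeR adjusted p = 0.472). By limma Ogt passed with the filter on low values (adjusted p = 0.0265) but not without it (adjusted p = 0.0985). The direction of Ogt was the same in each.

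Markers of other cells were present in DG nuclei. The GABAergic list (Gad1, Gad2 and Slc32a1) summed to a mean of 349 TPM in 1 h FOS+ nuclei, 129 in FOS- and 66.9 in HC nuclei, and to 207 and 92.1 in A>C and 144 and 104 in A>A FOS+ and FOS- nuclei. Nearly all of it was Gad1 (349 TPM at 1 h), while Slc32a1, which defines GABAergic cells, had no count in the HC and 1 h groups. Slc32a1 also had no count in A>C and 5 h nuclei, but it was counted in both A>A groups and at 4 h. The CA1 pyramidal list (Fibcd1, Wfs1 and Mpped1) summed to 64.5 TPM in 1 h FOS+, 39.6 in FOS- and 12.1 in HC nuclei, with Wfs1 the most abundant (38.0, 31.9 and 8.05 TPM). It summed to 39.8 and 15.6 in A>A and 12.1 and 15.1 in A>C FOS+ and FOS- nuclei. Astrocyte markers summed to 23.8 TPM in 1 h FOS+, 84.8 in FOS- and 56.0 in HC nuclei, and Aqp4, which defines astrocytes, had no count in the FOS+ and HC nuclei. Microglia markers summed to 1.01, 18.5 and 1.32 TPM in the same groups. Oligodendrocyte markers were also present in every DG group, and their sums are not given here. The part of all these markers in the levels of the 9 genes was not tested.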

How the data were processed

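Single nuclei were profiled by Smart-seq2 without strand information. The authors trimmed reads with Solexa-QA++ and quantified them with RSEM (using Bowtie) on mm10 with an Ensembl annotation, whose release and the tool versions are not given in the sources used here. The deposited expected counts were all exactly whole numbers and covered 42802 genes, of which 30 with missing values were dropped. The deposited log2(TPM+1) values covered 40221 genes (23 dropped). No column without a sample was present.

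Nuclei with at least 100000 aligned reads and 4000 genes above a log2 value of 1 were kept, and FOS- HC and 1 h nuclei with Arc above 2.5 were left out, leaving 783 nuclei of 31 mice with 142275 to 5885216 counts. Counts were summed per mouse and group (at least 2 nuclei) and tested with the quasi-likelihood test of edgeR 4.0.16 (R 4.3.3) after TMM scaling and filterByExpr. All DG groups shared 1 fit, and p-values were adjusted by Benjamini-Hochberg over all genes with a threshold of 0.05. DESeq2 1.42.0 on the same sums and limma 3.58.1 on mean log2(TPM+1) were alternatives, and the scripts were tested on simulated data. Detection was also computed after thinning each nucleus to 100000 counts. Intervals and upper bounds are 95% exact binomial over nuclei and cover counting error only, since Smart-seq2 reads carry no molecular identifiers. They do not cover the spread between mice. Gene positions are from GENCODE vM21 (GRCm38).

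FOS+ and FOS- nuclei of 1 animal are paired by the labels. Their deviations from group means correlated at 0.0721 to 0.106 over 3 CA1 pairs, 0.0489 to 0.081 over 3 subiculum pairs and 0.175 to 0.292 over 4 A>A pairs. The 9 members were named in every group. Genes of 6 further lists were named when called by edgeR or among the 2 largest fold changes of their list in 1 h FOS+ against HC DG nuclei. For Tet3, Gadd45b and Gadd45g the 5 most correlated genes were named. The members, lists and tests were chosen with earlier results of these data known. Of the genes this rule named and of the cell type markers, 1 each is not reported here. Ages differed between nuclei of 5 mice in the labels, and 2 mice whose nuclei carry 2 sort dates were each treated as 1 animal.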

Additional observations from a re-analysis of the deposited data

Results flagged for a closer look

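Among 26 groups of 4 to 6 mouse means of single members, 4 held a mouse far from the others, beside a nominal rate of about 1 in 20. The Tet1 and Gadd45a values among them lay near 0, where that rate need not hold. In A>A FOS- nuclei, Tet1 was at 0.31 in 1 mouse and at 0.11 or less in the other 5. The same mouse stood apart in A>A FOS+ nuclei for Gadd45a, at 0.08 with the other 5 at 0.00, and for Tdg, at 3.07 with the next mouse at 1.48. Another A>A mouse had Gadd45b at 3.52 in FOS+ nuclei, below the next lowest at 6.33, and also had the lowest Gadd45b of the FOS- means, at 1.45. The FOS+ minus FOS- difference of Tet1 had opposite signs between cell types. In each FOS+ and FOS- group of exposed mice of these cell types, Tet1 was at 0.33 or less in the median nucleus. Its mean FOS+ minus FOS- difference of log2(TPM+1) within mice was 0.19 in CA1 (3 mice) and 0.24 in VIP nuclei (2 mice), with every mouse higher, and -1.99 in subiculum (3 mice) and -0.58 in CA3 (2 mice), with every mouse lower. In DG nuclei it was -0.62 in the 1 mouse at 1 h and -0.08 in A>A (4 mice), with every mouse lower. The difference between these cell types was not tested.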

How the results depend on the processing

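By edgeR 0 members were called in 27 of 28 comparisons and 1 (Tet3) in DG 1 h FOS+ against HC, so a count that stayed the same under an alternative was mostly 0 against 0 and says little about stability. DESeq2 called more members than edgeR: 4 in DG 1 h FOS+ against FOS- and 4 against HC, 5 in 5 h against HC, 2 each in CA1 FOS+ against HC, subiculum FOS+ against FOS-, A>C FOS+ against FOS-, A>A FOS- against 5 h, and A>C against 1 h FOS+, and 1 each in CA1 FOS- against HC, subiculum FOS+ against HC, CA3, 4 h against HC, 5 h against 4 h, 4 h against 1 h FOS+, A>A FOS+ against FOS-, A>A against A>C FOS+, and resting DG and VIP against CA1. By limma, 2 members were called in DG 1 h FOS+ against FOS-, 2 against HC and 2 in A>A, and without a filter on low values 2, 3 and 1, with 1 each in 4 h and 5 h against HC. With no threshold on reads or genes per nucleus edgeR called 2 in DG 1 h FOS+ against FOS- and 2 against HC (Tet3 and Gadd45b in each), and 1 each in 4 h and 5 h against HC (Gadd45b). With either HC mouse left out, Tet3 lost its call in DG 1 h FOS+ against HC, at log2 fold changes of 5.48 and 4.68. Those fits leave 1 mouse in each group. Of 509 values of single members 2 reversed, both when 1 HC mouse was left out: Tet1 in 4 h against HC (log2 fold change -8.32 to 0.34) and Dnmt1 in 5 h against HC (-8.01 to 4.26). The causes were not tested. With the mouse as a replicate block, edgeR called 0 members and 0 genes in every comparison it could be run on, and Tet3 in A>A was at 1.96 (adjusted p = 0.514). Thinning moved 89 of 225 detection shares and a level above 1 moved 58, so shares of low members depend on depth.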

Other observations

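Small groups were left out of the comparisons. In 7 Ivy FOS- nuclei of 3 mice at 1 h, Dnmt3a averaged 6.69, Tet2 2.37 and Tet3 0.02 on the log2(TPM+1) scale. In 5 Th nuclei of 1 HC mouse, Dnmt3a was at 6.59, Tet2 at 3.62 and Tet3 at 1.57, and the 3 Gadd45 genes at 0.00. In 4 Pvalb FOS+ nuclei of 2 mice at 1 h, Gadd45g was at 3.75 and 3.89, Tet1 at 3.89 and 2.33, and Gadd45b at 0.00 in both.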
